A study of Mus musculus with 22 samples.

Results

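The libraries described here came from 8 female mice of known social rank, 4 dominant and 4 submissive, and make up 8 of the 22 samples of the series. They were chosen by the names of their columns in the count table and paired by the cage label in those names, each label standing for 1 dominant and 1 submissive female. For 2 cages the label is a number, and these are called cage 1 and cage 2 here; the others are labelled Gr1 and Gr2. All 8 were C57BL/6JOlaHsd mice without a genetic change or drug, housed 4 per cage, ranked in the tube test at 10 to 12 weeks of age and killed 3 to 4 days later, so that social rank was the only labelled difference between the groups. RNA of the right brain hemisphere was depleted of ribosomal RNA and sequenced, and the other 14 samples were dominant and submissive males held in a separate table. Each library is 1 animal. What Gr stands for is not stated in the labels; the study also mixed females of middle rank into new groups and tested them again, and the labels do not say which sequenced mice had passed through this step.

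In the tube test, 2 mice enter a tube from opposite ends and the animal that retreats loses the match, so that repeated matches order the members of a cage. Rank in such groups has long been linked to the monoamines, among them serotonin, which is made by a small set of neurons in the raphe nuclei of the brainstem that send axons through the whole forebrain. Serotonin neurons are marked by Tph2, the rate-limiting enzyme of serotonin synthesis in the brain, by Ddc, which completes the synthesis, by Slc18a2, which loads monoamines into vesicles, and by Slc6a4, the transporter that takes serotonin back up. Cartpt encodes the precursor of the CART peptides, which are made in the hypothalamus and other regions and are known for their part in feeding and stress.

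Depth was even, with 14967458 to 16488762 assigned reads per library. Ddx3y, on the Y chromosome, had 0 reads in every female library, and Xist, the RNA of the inactive X chromosome, lay between 309 and 396 CPM (read counts scaled to 1000000 per library), which fits the labelled sex. Markers of the labelled tissue were present in all 8 libraries, such as the neuronal gene Snap25 (1838 to 2021 CPM), the astrocyte gene Aldoc (1105 to 1299 CPM) and the myelin gene Mbp (1977 to 2358 CPM). The submissive female of Gr1 stood apart from the rest: in its library the summed level of 9 pituitary genes was 16.6 CPM, against 0.361 to 1.11 CPM in the other 7 libraries. Prolactin (Prl, 11.9 CPM) and growth hormone (Gh, 4.11 CPM) carried this signal, while Pou1f1, the factor that defines their cells, had 0 reads. The count of called genes without this library is given with the first comparison.

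The first question was which transcripts differed between dominant and submissive females. Of 14865 genes tested, 14 passed an adjusted p of 0.05 (0.0942% of the genes tested), 11 higher and 3 lower in dominant females. Where nothing else is said, a gene that passed did so in edgeR on all 8 libraries, after the filter on low counts and without the cage pair. The 3 lower genes had by far the larger folds: Tph2, Slc6a4 and Cartpt had log2 fold changes of -1.77, -1.77 and -1.09, whereas those of the 11 higher genes were 0.19 to 0.38. With the cage pair in the model the count was 36 (0.242%), 27 higher and 9 lower, and all 14 genes were among them. Every 1 of the 14 genes had the same direction in all 4 cage pairs, and so had 35 of the 36. Of all genes tested, 8.72% were higher and 8.82% lower in the dominant female of all 4 pairs. The called genes were picked by tests on these same libraries, so their agreement in direction is not separate evidence. The count rested on single libraries: without the submissive female of Gr1, or without the submissive female of cage 1, 0 genes passed in edgeR (1356 and 1426 genes then had an unadjusted p under 0.05), and without the dominant female of cage 2 the count was 77. With no filter on low counts 84 genes passed. Gr1 and Gr2 alone gave 120 genes, 104 of them higher, and cages 1 and 2 alone gave 5, all lower.

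The promoters of the 3 lower genes are shown because these genes carried the largest differences. Each is the stretch of 250 bases before the transcription start, 5′ to 3′ on the strand of the gene, from RefSeq (GRCm38.p6). The window ends at the start of the gene in the count table for all 3. Capitals mark matches, on either strand, to GGAAG (the core bound by ETS factors such as Fev, the serotonin neuron factor also called Pet-1), TGACG (part of the cyclic AMP response element) and TATAAA.
Tph2, chr10:115185023-115185272, minus strand: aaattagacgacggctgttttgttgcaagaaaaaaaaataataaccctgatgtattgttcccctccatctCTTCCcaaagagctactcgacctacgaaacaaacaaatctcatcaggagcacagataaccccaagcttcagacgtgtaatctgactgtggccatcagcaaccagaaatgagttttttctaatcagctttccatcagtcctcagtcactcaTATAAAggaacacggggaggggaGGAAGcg
Slc6a4, chr11:76998347-76998596, plus strand: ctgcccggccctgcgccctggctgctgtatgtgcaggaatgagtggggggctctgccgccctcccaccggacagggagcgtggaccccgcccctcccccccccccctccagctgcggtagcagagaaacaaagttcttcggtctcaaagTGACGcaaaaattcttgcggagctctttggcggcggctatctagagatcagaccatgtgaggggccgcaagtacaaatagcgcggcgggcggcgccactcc
Cartpt, chr13:99900684-99900933, minus strand: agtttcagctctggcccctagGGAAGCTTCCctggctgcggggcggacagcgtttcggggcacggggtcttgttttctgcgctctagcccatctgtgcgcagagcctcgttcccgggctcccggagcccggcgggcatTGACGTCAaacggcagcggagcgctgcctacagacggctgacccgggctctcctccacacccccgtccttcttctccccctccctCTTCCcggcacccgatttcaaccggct

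GGAAG occurred 2 times in the Tph2 window, 3 times in that of Cartpt and 0 times in that of Slc6a4, and 64.1% of 32851 promoter windows of the same length hold it. TGACG occurred once before Slc6a4 and 2 times before Cartpt, where the matches on the opposite strands overlap, against 17.8% of all windows. TATAAA occurred only before Tph2 among these 3 genes, against 12.4% of all windows. The windows also differed in base composition, with 43.6% G and C before Tph2, 64.8% before Slc6a4 and 66.8% before Cartpt, beside a median of 52.4% over all windows. None of the 3 strings counted was found before all 3 genes, and other matches to GGAA were not counted.

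Tph2 (mm10, chr10:115078641-115185022, minus strand) was at 7.71, 5.04, 1.90 and 2.61 CPM in the dominant females of cage 1, cage 2, Gr1 and Gr2, and at 20.6, 15.1, 17.9 and 5.90 CPM in their submissive cage mates. The submissive female was the higher animal in every cage, although the submissive female of Gr2 lay below the dominant female of cage 1, so the groups overlapped. The means were 4.32 ± 2.63 CPM and 14.9 ± 6.41 CPM (SD, n = 4 each), a log2 fold change of -1.77 ± 0.32 (SE; adjusted p = 0.042). With the cage pair in the model the adjusted p was 9.0e-05, and over 15 alternative settings it ran from 2.7e-05 to 0.14.

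Slc6a4 (chr11:76998597-77032343, plus strand) was at 2.78, 2.49, 0.327 and 0.915 CPM in the dominant and at 6.71, 5.40, 7.03 and 3.55 CPM in the submissive females, in the same order of cages. All 4 dominant values were under the lowest submissive value, as for 2.66% of the genes tested. The log2 fold change was -1.77 ± 0.31 (adjusted p = 0.042; 5.9e-05 to 0.11 over 15 settings), and within pairs it ran from -1.08 in cage 2 to -3.98 in Gr1. The pair Gr1 gave the largest ratio for Tph2 as well (-3.16, against -1.14 to -1.56 in the other 3 pairs). Without the dominant female of Gr1 the log2 fold changes were -1.52 for Tph2 and -1.44 for Slc6a4, with adjusted p-values of 0.14 and 0.087. Both genes also failed without the dominant female of Gr2 or the submissive female of cage 1 (adjusted p = 0.11 in each case). The same held without the submissive female of Gr1 (0.096 for both).

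Cartpt (chr13:99898483-99900683, minus strand) was nearly level among dominant females, at 9.30, 8.50, 7.84 and 9.08 CPM, and was at 21.9, 19.9, 21.9 and 10.4 CPM in submissive females. The groups did not overlap, but in Gr2 the cage mates were close (log2 ratio -0.19), whereas the other pairs gave -1.21 to -1.47. The log2 fold change was -1.09 ± 0.17 (adjusted p = 0.027; 1.4e-07 to 0.091 over 15 settings). Of the 14 hypothalamic and feeding peptide genes tested, Cartpt among them, 12 were below 0, with a median log2 fold change of -0.16 and 3 lower at an unadjusted p under 0.05 (4.08% of all genes tested), and Cartpt alone passed. The others of these 3 were Oxt and Pomc, a precursor that the pituitary makes as well: Pomc was at 6.57 CPM in the submissive female of Gr1, the library with the pituitary signal, and at 2.01 to 2.17 CPM in the other submissive and 1.11 to 2.29 CPM in the dominant females. The pair medians were -0.073, -0.14, -0.62 and -0.017. The dominant female of Gr1 had the lowest level of all 8 libraries for Oxt (0.850 CPM) and Avp (1.57 CPM) as well as for Cartpt, and without it the median of the list was -0.036; the part of the amount of hypothalamus in a sample was not tested. Within cages 1 and 2 alone, the 5 genes that passed were Tph2, Slc6a4, Cartpt, Pcsk1n and Mir6236 (-0.36), the last named after its values were seen.

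**Figure D1:**
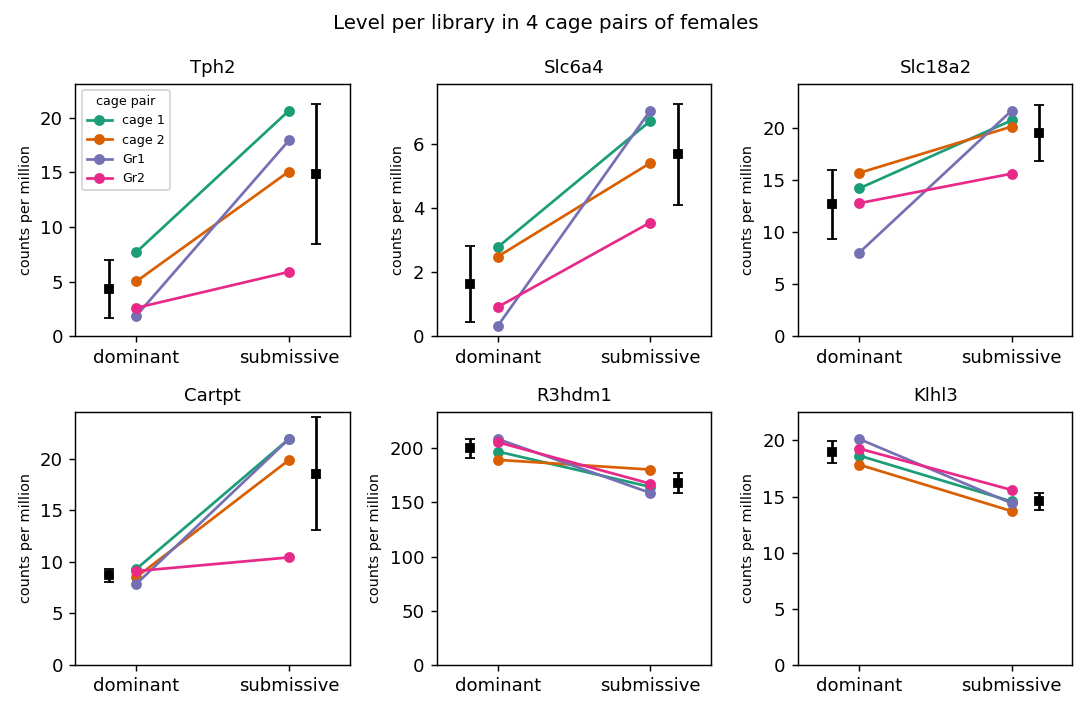
Level of 6 genes in CPM (vertical axes, from 0) in each of 8 female libraries; lines join the dominant and the submissive female of a cage and black squares give the mean with the SD (n = 4). Tph2, Slc6a4, Slc18a2 and Cartpt were lower in the dominant female of each pair, and R3hdm1 and Klhl3 were higher.

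The remaining genes of serotonin neurons were read from a list of 14 markers, of which 12 were tested. The list had a median log2 fold change of -0.32, beside -0.0020 over all genes tested, and 11 of its 12 members were below 0. Of these, 2 passed the test (Tph2 and Slc6a4), and Slc18a2 was the third with the cage pair in the model. Slc18a2 was at 14.2, 15.7, 8.04 and 12.8 CPM in the dominant animals and at 20.8, 20.2, 21.7 and 15.6 CPM in their cage mates, which gave a log2 fold change of -0.62 ± 0.14 (adjusted p = 0.087, and 0.037 with the cage pair; 0.0020 to 0.31 over 15 settings). It was lower in the dominant female of every pair, with the submissive female of Gr2 just under the dominant female of cage 2.

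Ddc was at 17.6 ± 3.89 CPM (dominant) and 22.9 ± 2.16 CPM (submissive), with a log2 fold change of -0.38 (adjusted p = 0.20), and Slc17a8, a vesicular glutamate transporter found in part of the raphe neurons, was at 4.49 ± 0.50 and 5.80 ± 0.97 CPM (-0.37). Neither passed the test. Maob, which breaks down monoamines, and the serotonin receptor gene Htr1a, which other brain cells also express, had log2 fold changes of -0.08 and -0.06. The transcription factor gene Gata3 was the only member above 0 (0.20), while Gata2 was at -0.33, Slc22a3, an organic cation transporter, at -0.24, and the other 2 tested members between -0.30 and -0.26. The factors that define the cells in development were near the floor, with 3 reads of Fev and 19 of Lmx1b in all 8 libraries together. In a sample of a whole hemisphere, fewer cells of a type and less RNA per cell cannot be told apart.

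The summed level of the 14 markers was 83.6 to 114.0 CPM among the dominant animals and 114.2 to 145 CPM among the submissive. The submissive female of Gr2 was the lowest of its group, the other 3 being at 142 to 145 CPM, and lay level with the dominant females of both numbered cages. A list of 21 genes was kept for the brainstem and spinal cord, but its 14 Hox genes, which mark position, were too low to be tested. The 7 tested are genes of glycinergic, cholinergic and other cells, such as Slc6a5 and Chat, and cholinergic neurons are found in the striatum as well. Their median was -0.067, with 0 at an unadjusted p under 0.05, and the pair medians were 0.21, 0.13, -0.47 and -0.33. With 1 library left out the median ran from -0.12 to 0.021, the latter without the dominant female of Gr1. These genes did not keep one direction over the pairs, and their part in the serotonergic result was not tested. Of the dopamine and noradrenaline list, 0 of 10 genes passed, with a median of -0.14 (-0.025 without the dominant female of Gr1). Th, the rate-limiting enzyme of catecholamine synthesis, was at 10.1 ± 1.20 and 12.1 ± 0.53 CPM (-0.27, adjusted p = 0.28). The developmental gene En1 was at a log2 fold change of -0.77 (adjusted p = 0.30).

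None of 12 serotonin receptor genes tested passed in edgeR, with or without the cage pair, or in DESeq2, which gave no adjusted p to Htr1a. Of the 12, 1 had an unadjusted p under 0.05 and 9 were below 0. The median log2 fold change was -0.038 (-0.064 to -0.0034 with 1 library left out, the latter without the submissive female of cage 2).

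Of the 11 genes that rose in dominant females, 10 had more exon bases than the median gene. R3hdm1, which encodes an RNA-binding protein and is the host gene of a microRNA of the miR-128 family, was at 197, 189, 209 and 206 CPM in dominant and at 164, 180, 159 and 167 CPM in submissive females. The ranges of the ranks did not meet, and the log2 fold change was 0.25 ± 0.04 (adjusted p = 0.027; 5.0e-05 to 0.94 over 16 settings). Klhl3, an adaptor of a ubiquitin ligase, was at 19.0 ± 0.97 against 14.6 ± 0.78 CPM (0.38 ± 0.07, adjusted p = 0.042).

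Another 3 of the higher genes encode parts of the synapse or of calcium signalling. Pclo (Piccolo), a scaffold of the presynaptic active zone, was at 398 ± 33.0 against 330 ± 13.7 CPM (0.27 ± 0.05, adjusted p = 0.038). Cacna1e, the pore of R-type calcium channels, was at 320 ± 18.8 against 275 ± 11.8 CPM (0.22 ± 0.04, adjusted p = 0.042), and the study itself names this gene. Ryr3, a calcium release channel of the endoplasmic reticulum, was at 123 ± 4.70 against 108 ± 3.61 CPM (0.19 ± 0.04, adjusted p = 0.0495). Nav1 (neuron navigator 1), which binds microtubules and belongs to neither, was at 63.0 ± 5.21 against 51.4 ± 2.73 CPM (0.29 ± 0.06, adjusted p = 0.0495).

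Also higher were Ago3, an Argonaute protein of microRNA silencing (0.23), Mkl2, a coactivator of serum response factor (0.22), AI593442 (0.21) and Xist (0.22). Xist was at 396, 360, 394 and 387 CPM in dominant and 309, 341, 335 and 338 CPM in submissive females, without overlap. It shares 1959 exon bases with its antisense gene Tsix, and the strand setting of the counting was not given in the sources used here. For all 11 genes the dominant and the submissive libraries did not overlap, beside 2.93% of the genes tested for which every dominant library was above every submissive library. The log2 ratios of R3hdm1 and Mkl2 were smallest in cage 2 (0.07 and 0.02), and that of Klhl3 in Gr2 (0.30).

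**Figure D2:**
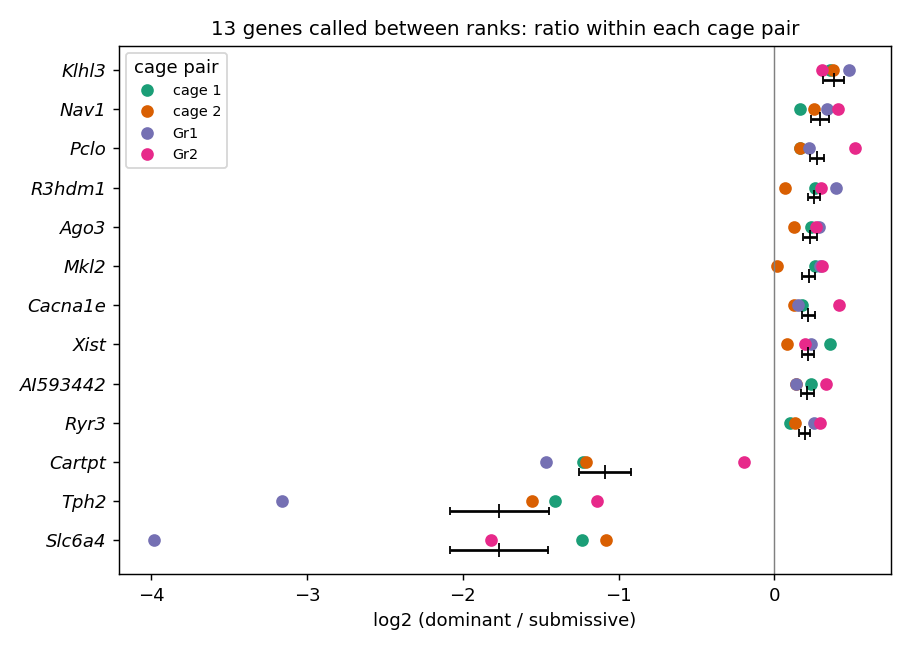
Log2 ratio of dominant to submissive (horizontal axis) for 13 of the 14 genes called, with 1 coloured point per cage pair and, under the points, the fitted log2 fold change with its SE in black. All pairs lie on the same side of 0 for each gene, and Slc6a4, Tph2 and Cartpt lie much farther from 0 than the higher genes.

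With the cage pair in the model, 22 further genes passed. Among the lower genes, Pcsk1n, the precursor of the proSAAS peptides of secretory granules, was at 86.6, 83.4, 68.8 and 81.0 CPM in dominant and at 109, 102, 81.9 and 91.7 CPM in submissive females. The groups overlapped while the ratio was steady, between -0.18 and -0.33 on the log2 scale (adjusted p = 0.0076 with the cage pair and 0.16 without). Scarna2, a small Cajal body RNA that the count table lists with 61 exon bases, had ratios of -0.22 to -0.39 (adjusted p = 0.016 with and 0.33 without). Insig1, which retains the regulators of sterol synthesis in the endoplasmic reticulum, was at -0.19 (0.043 with, 0.14 without).

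The cold-inducible RNA-binding proteins Cirbp and Rbm3, which rise when brain temperature falls, passed together in that model. Cirbp was at 63.5, 51.6, 49.2 and 66.9 CPM in dominant and 70.7, 73.5, 67.5 and 72.2 CPM in submissive females, without overlap (-0.30 ± 0.07; adjusted p = 0.036 with the cage pair and 0.12 without). Rbm3 was at 51.0 ± 7.24 and 61.4 ± 2.99 CPM (-0.27 ± 0.07; 0.045 and 0.16). They make up the whole list of 2. DESeq2 called Rbm3 and not Cirbp.

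Among the higher genes of the paired model were regulators of chromatin and of the synapse. Kmt2d and Kmt2a, which methylate lysine 4 of histone H3, had log2 fold changes of 0.34 and 0.23, and the acetyltransferase Crebbp of 0.21. Bsn (Bassoon), the large partner of Piccolo in the active zone, was at 0.30, and the NMDA receptor subunit Grin2b at 0.24. The actin regulators Inf2 (0.36, adjusted p = 0.0076 with the cage pair) and Wasf1 (0.28) and the long non-coding RNA Snhg11 (0.19) passed as well. Egr1, an immediate-early gene, was the only gene of the 36 that did not keep its direction: its log2 ratio was -0.04 in cage 2 and 0.38, 0.46 and 0.79 in the other pairs.

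DESeq2 called 79 genes (1.46% of the 5400 to which it gave an adjusted p), 74 higher and 5 lower, and 9 of the 14 were among them. Its 5 lower genes were Rbm3, Insig1, Sparc, Wdr6 and 1110004F10Rik, the last pair named after their values were seen. It gave no adjusted p to Tph2, Slc6a4, Cartpt or Klhl3, which its filter on the mean count left out. Other genes of the lists below also had no adjusted p there and could not pass in DESeq2.

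The higher genes had long transcripts, so the level of each library was set against the exon length of the gene, as the count table lists it. Each library was taken relative to the mean of all libraries. In the plot of this relative level against length, the 4 submissive females fell with length and 3 of the 4 dominant females rose. The mean slopes of the ranks are opposite in sign by construction, so only their difference is informative. The slopes, in log2 units per doubling of length over 11373 genes, were 0.013, -0.0023, 0.023 and 0.026 in the dominant females of cage 1, cage 2, Gr1 and Gr2. In the submissive females they were -0.013, -0.011, -0.014 and -0.022. The groups did not overlap: the mean slopes were 0.015 ± 0.013 and -0.015 ± 0.0047 (SD, n = 4), so that the ranks differed by 0.030 (p = 0.029 by a two-sided exact permutation test, the smallest p that 70 assignments allow). Taken within cage pairs, an exact sign-flip test gave p = 0.13, the smallest that 4 pairs allow. The dominant female of cage 2 was nearly flat.

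In the shortest 10% of the genes tested, with exon lengths up to 1185 bases, the median log2 fold change between ranks was -0.041. In the longest 10%, from 6469 bases, it was 0.053. The longest 10% held 405 genes with an unadjusted p under 0.05 that were higher in dominant females and 28 that were lower, whereas the shortest 10% held 23 and 121. Of the 14 called genes 7 came from the longest 10%. The median exon length was 8987 bases for the 11 higher genes, 2626 bases for the 3 lower genes and 2983 bases for all genes tested.

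**Figure D3:**
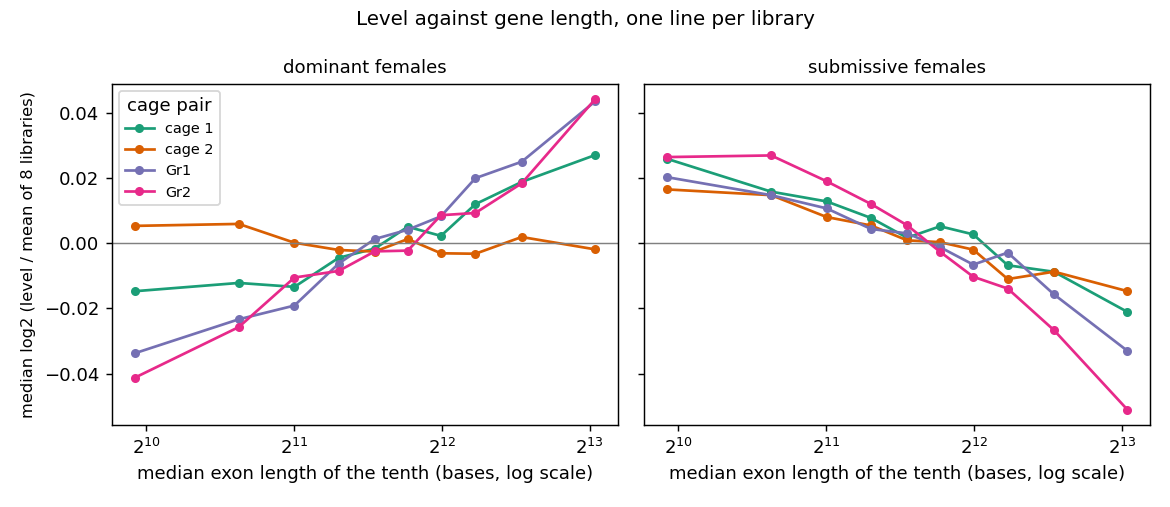
Median log2 ratio of a library to the mean of all 8 (vertical axis) in 10 equal groups of genes ordered by exon length (horizontal axis, log scale, bases), 1 line per library. In the longest group the dominant females of cage 1, Gr1 and Gr2 reached 0.027 to 0.044, the dominant female of cage 2 was at -0.0019, and the submissive females were at -0.015 to -0.051.

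The trend was then removed from each library before the test. No gene passed an adjusted p of 0.05 in edgeR without the cage pair (0% of those tested; 1129 genes had an unadjusted p under 0.05, beside 1563 before). With the cage pair, 8 genes passed (0.0538%): Tph2, Slc6a4, Cartpt, Pcsk1n and Scarna2 were lower, and R3hdm1, Klhl3 and Inf2 were higher in dominant females. The log2 fold changes of the 3 largest were nearly as before, at -1.77 for Tph2, -1.78 for Slc6a4 and -1.03 for Cartpt. Those of the long genes shrank, from 0.19 to 0.12 for Ryr3 (15408 bases), from 0.27 to 0.18 for Pclo (22100 bases) and from 0.22 to 0.13 for Xist (17918 bases). Whether the trend on length belongs to rank or to the preparation of the libraries cannot be told apart. The length trend did not separate the ranks of the males, whose slopes differed by -0.011 (7 against 7, exact permutation test, two-sided, p = 0.65). This test ignored the cage, and a difference within male cage pairs was not tested. The male slopes ran from -0.076 to 0.057, a wider range than that of the females, and went with the cage: they were above 0 in all 8 libraries of 4 cages and below 0 in all 6 of the other 3 cages, in both ranks.

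The lists of ion channels, synaptic scaffolds, release machinery and glutamate and GABA-A receptors had medians above 0. Of 24 postsynaptic scaffold genes, 24 were above 0 with a median log2 fold change of 0.11, 12 had an unadjusted p under 0.05 and were higher (6.43% of all genes tested), and 11 were higher in all 4 pairs (8.72% of all genes). Of these genes 0 passed without the cage pair, 1 passed with it, and DESeq2 called 4, among them Sipa1l1 (0.19). With the length trend removed the median was 0.062. The pair medians were 0.032, 0.012, 0.16 and 0.14, so Gr1 and Gr2 contributed most.

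Of 18 voltage-gated calcium channel genes, 17 were above 0 (median 0.088, and 0.070 with the trend removed). At an unadjusted p under 0.05, 9 were higher (6.43% of all genes tested), and 5 with the trend removed. Cacna1e alone passed, and DESeq2 also called Cacna1c (0.16), the pore of an L-type channel. Calcium pumps and release channels had a median of 0.090 with 8 higher and 1 lower of 16 at an unadjusted p under 0.05. With the trend removed the median was 0.025, with 4 higher and 2 lower at that level. Atp2b4 (0.21) and Atp2b2 (0.14), which pump calcium out of the cell, were called by DESeq2. The exchanger Slc8a3 went the other way: it was at 77.6 ± 0.99 CPM (dominant) and 84.9 ± 1.42 CPM (submissive) without overlap (-0.13, adjusted p = 0.16).

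Of 39 potassium and HCN channel genes, 29 were above 0 (median 0.039). Of the 39, 11 had an unadjusted p under 0.05, all higher (6.43% of all genes tested), such as Kcnma1 (0.14). With the trend removed the median was 0.020 and 6 were higher at that level. Of 34 genes of the release machinery, 25 were above 0 (median 0.031) and 10 were higher at that level. Among them were Syn1 (0.23) and Vamp2 (0.17), which coat and fuse synaptic vesicles. With the trend removed the median of the release machinery was 0.022 and 6 were higher at that level. Of 25 adhesion genes, 6 were higher and 0 lower (median 0.049), led by Nlgn2 (0.25), Opcml (0.14) and Nrxn3 (0.12), and with the trend removed the median was 0.028 and 4 were higher. The adhesion median was 0.082 without the dominant female of cage 2. Of 16 genes of the axon initial segment and perineuronal matrix, 7 were higher and 0 lower (median 0.069), such as Nfasc (0.17), Tnr (0.16) and Ank3 (0.16); with the trend removed 3 of the 16 were higher at that level, with a median of 0.052. As normalised, that median was 0.105 without the dominant female of Gr1. The medians of receptor subunits were 0.044 for 6 NMDA, 0.062 for 11 AMPA and kainate and 0.025 for 13 GABA-A receptor genes. With 1 library left out they ran from 0.026 to 0.072 for NMDA and from 0.047 to 0.077 for AMPA and kainate receptors. For GABA-A receptors they ran from 0.0082 to 0.039, the lowest without the dominant female of cage 1. DESeq2 called Grin2a (0.21), and Gria3 (0.11) passed no test.

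Chromatin regulators and long non-coding RNAs showed the same direction. Of 24 histone methyltransferases, acetyltransferases and histone readers, 20 were above 0. Of the 24, 11 were higher at an unadjusted p under 0.05 (6.43% of all genes tested) and 12 were higher in all 4 pairs (8.72%). The median fell from 0.066 to 0.017 when the trend on length was removed. Kmt2d, Kmt2a and Crebbp passed in edgeR with the cage pair, with Gr1 and Gr2 alone (adjusted p = 0.011, 0.022 and 0.049) and with no filter on low counts (0.0020, 0.011 and 0.015). Of 13 nuclear and imprinted long non-coding RNAs, 13 were above 0 with a median of 0.17 (0.095 with the trend removed) and 8 were higher at that level. Kcnq1ot1, listed with 83437 exon bases, went from 0.21 to 0.02, while Meg3 was at 0.17 and the host transcript Mir124a-1hg at 0.24. DESeq2 called the latter 2 (adjusted p = 0.027 and 0.037), and edgeR called both with no filter on low counts (0.023 and 0.031) and neither on all 8 libraries with it (0.15 and 0.16). Ago3 passed alone among 13 genes of microRNA silencing, and its partner Tnrc6b was at 0.16 (called by DESeq2).

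Short housekeeping genes lay on the other side. Of 76 cytosolic ribosomal protein genes, 73 were below 0, 16 had an unadjusted p under 0.05 and were lower (4.08% of all genes tested), and 32 were lower in all 4 pairs (8.82% of all genes), with a median of only -0.050. Rpl13a was at 254 ± 4.99 and 274 ± 1.66 CPM (-0.11) and Rpl24 at 54.4 ± 1.94 and 60.5 ± 2.17 CPM (-0.15). The median of the list was -0.0061 with the length trend removed, and 3 genes were then lower at that level. The respiratory chain (73 genes, median -0.043, and -0.0066 with the trend removed; Atp5k at -0.12) and the proteasome (31 genes, -0.048 and -0.018; Psmd3 at -0.13) followed the same course. None of these 180 genes passed in edgeR, with or without the cage pair, or in DESeq2; 37 had an unadjusted p under 0.05.

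**Figure D4:**
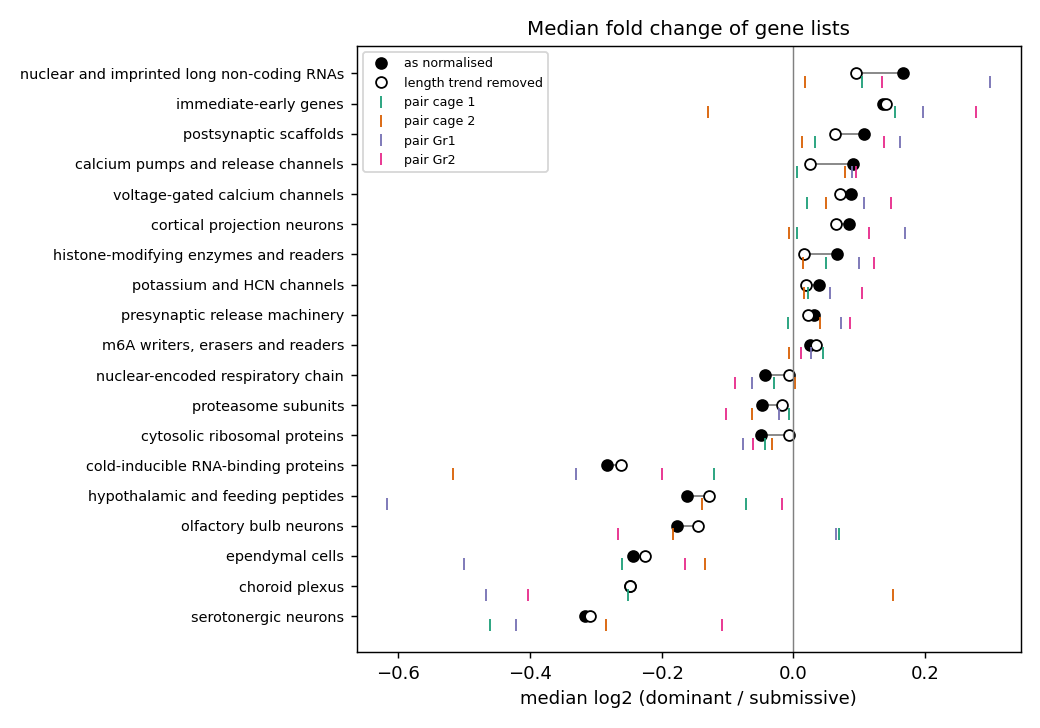
Median log2 ratio of dominant to submissive (horizontal axis) for 19 gene lists, as normalised (filled) and with the trend on length removed (open), with a coloured tick for the median in each cage pair. The ribosomal, respiratory and proteasome lists moved towards 0 when the trend was removed, whereas the serotonergic, choroid plexus and ependymal lists stayed at -0.31, -0.25 and -0.23.

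Lists tied to other cell types were read for the same reason. Choroid plexus genes, which mark the tissue that makes cerebrospinal fluid, were below 0 in 14 of 14 with a median of -0.25. Of these, 8 were lower at an unadjusted p under 0.05 (4.08% of all genes tested). On all 8 libraries 0 passed in edgeR, with or without the cage pair. None passed in DESeq2, which gave no adjusted p to Kl, F5, Folr1 or Prlr. Kl was at 25.3 ± 2.02 and 32.5 ± 4.09 CPM (-0.36, adjusted p = 0.087), F5 at 10.7 ± 0.43 and 14.1 ± 1.47 CPM without overlap (-0.39, adjusted p = 0.087), and Folr1 at -0.35. Kl and F5 passed with Gr1 and Gr2 alone (adjusted p = 0.0047 and 0.028) and with no filter on low counts (0.0064 and 0.020). The summed level of the list was 1652 to 1877 CPM (dominant) and 1555 to 2196 CPM (submissive), and the pair cage 2 went the other way with a pair median of 0.15. The median of the list was -0.16 without the submissive female of Gr1. Ependymal genes, which mark the ciliated lining of the ventricles, were below 0 in 10 of 11 (median -0.24, and -0.13 without the submissive female of Gr1) with summed levels of 41.9 to 46.6 and 49.6 to 62.2 CPM. Among them Tmem212 was at 1.53 ± 0.058 and 2.54 ± 0.59 CPM (-0.72), Ccdc153 at -0.53, Rarres2 at -0.32 and Dnah6 at -0.27, none of which passed.

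**Figure D5:**
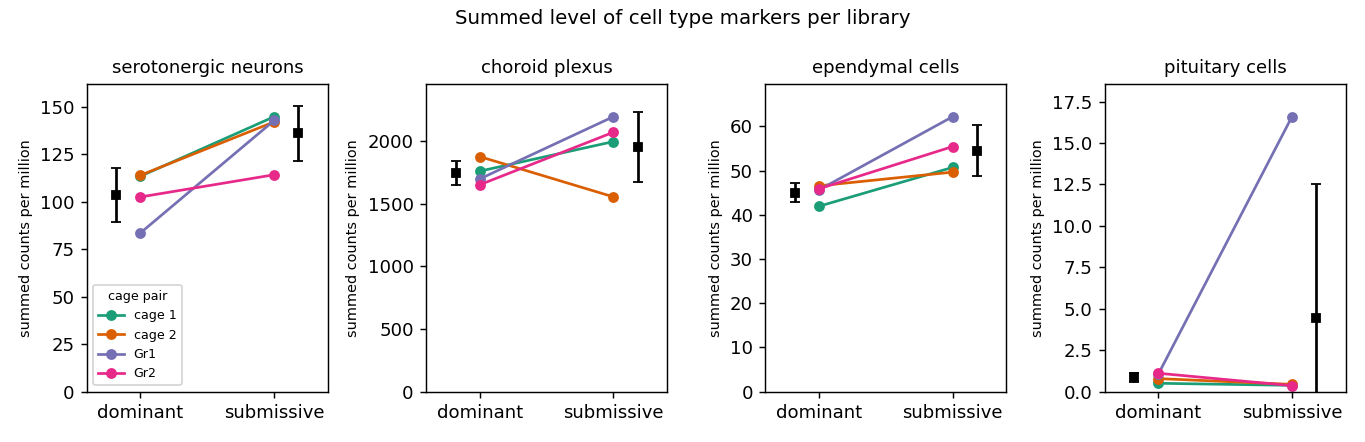
Summed level of 4 lists of cell type markers in CPM (vertical axes, from 0) in each female library; lines join cage mates and black squares give the mean with the SD (n = 4). The serotonergic and ependymal sums were lower in the dominant female of each pair, the choroid plexus sum was higher in the dominant female of cage 2, and the pituitary sum was 16.6 in the submissive female of Gr1 and under 1.2 elsewhere.

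Of 2 blood cell genes tested, Alas2, the first enzyme of haem synthesis in red cells, had a log2 fold change of 0.65 (adjusted p = 0.15). It was at 6.01, 4.31, 3.86 and 4.97 CPM in dominant and 3.80, 3.20, 2.59 and 2.59 CPM in submissive females. Ptprc was at 0.27. The globin genes of the list had 0 reads in every library. The reason was not tested, and this is not read as an absence of red cells. Markers of the cortex were slightly above 0 (15 genes, median 0.084, Rorb at 0.18). Of these, 6 were higher at an unadjusted p under 0.05 (6.43% of all genes tested). Markers of the striatum had a median of 0.074 (Pde10a at 0.19), which was -0.073 within cage 2. That median ran from 0.032 without the submissive female of Gr1 to 0.13 without that of cage 2. Markers of microglia (0.040), endothelium (0.016), oligodendrocytes (0.018) and Purkinje cells (0.020) had small medians, which were unsteady when 1 library was left out: that of microglia went down to 0.015, and the other 3 changed sign (-0.064 to 0.084 for Purkinje cells). Neurons of the olfactory bulb had a median of -0.18, with 9 of 11 genes below 0. At an unadjusted p under 0.05, 4 were lower (4.08% of all genes tested), among them Th and Calb2 (-0.18), but 0 passed. Their pair medians were 0.070, -0.18, 0.065 and -0.27, and the median was -0.055 without the dominant female of cage 2 and -0.11 without the submissive female of Gr2. Astrocyte markers had a median of -0.024 (-0.039 to 0.014 with 1 library left out), while the abundant glutamate transporter Slc1a2 was at 0.11. The part of tissue composition in the gene results was not tested.

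The stress axis, the glucocorticoid response and the m6A system, which marks messenger RNA by methylation and which the study examined, were read as lists. Of 13 stress axis genes, 0 passed: Oxt, the oxytocin precursor, was at 3.10, 5.89, 0.850 and 7.71 CPM in dominant and 6.08, 10.9, 6.97 and 7.94 CPM in submissive females (-0.86, adjusted p = 0.30), the receptor Crhr2 at -0.55 and the glucocorticoid receptor Nr3c1 at 0.10. Of 19 glucocorticoid-induced genes, 16 were below 0 with a median of -0.059 (-0.10 without the submissive female of cage 1 and -0.034 without that of Gr2; 0.059 within cage 1), and Sgk1 was at 70.6 ± 3.34 and 81.6 ± 15.8 CPM (-0.21, adjusted p = 0.38). Of 20 m6A writers, erasers and readers, 0 passed in edgeR or DESeq2 and 1 had an unadjusted p under 0.05, with a median of 0.025 (0.045 without the dominant female of cage 2 and 0.039 without the submissive female of Gr1). That gene, the reader Ythdc2, was at 105 ± 2.29 and 98.0 ± 6.09 CPM (0.09). The writer subunit Wtap was at 64.2 ± 3.97 and 60.3 ± 0.99 CPM (0.09). The methyltransferase Mettl3 was at 0.10, and DESeq2 gave it no adjusted p.

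Immediate-early genes, which follow recent neuronal activity, had a median of 0.14 with 22 of 24 above 0, but the pair cage 2 went the other way (-0.13, against 0.15, 0.20 and 0.28). The median rested on single libraries: it was 0.0096 without the dominant female of Gr1, 0.078 without the submissive female of Gr2, 0.24 without the dominant female of cage 2 and 0.22 without the submissive female of Gr1. Cholesterol synthesis genes were below 0 in 21 of 26 (median -0.064), with Srebf1, a transcription factor of lipid synthesis, at -0.15. Their median ran from -0.099 to -0.041 with 1 library left out, the former without the dominant female of Gr2. Genes of the heat shock and unfolded protein response had a median of 0.078, which was 0.087 with the trend on length removed. At an unadjusted p under 0.05, 6 of 21 were higher (6.43% of all genes tested). Among them were Manf (42.9 ± 0.87 and 38.0 ± 1.03 CPM, 0.17) and Hspa5 (0.19). On all 8 libraries none of these 21 genes passed in edgeR, with or without the cage pair, or in DESeq2. The latter gave no adjusted p to Manf. The adjusted p of Hspa5 was 0.19, and it was 0.043 with no filter on low counts and 0.027 without the dominant female of Gr2.

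A set of 14 genes is named in the study from its sequencing. The study named 9 of them from these females, so their direction is not independent evidence, and 5 genes of the cerebellum from the males, as variable but not different between ranks. The 9 were higher in all 4 pairs and had an unadjusted p under 0.05 here (Cacna1e, Tnr, Nlgn2, Slc1a2, Grin2a, Grin2b, Atp2b2, Atxn1 and Kmt2a), with log2 fold changes of 0.11 to 0.25, and DESeq2 called these 9. With the length trend removed, 0 of them passed in edgeR, with or without the cage pair, and the values fell from 0.11 to 0.04 for Slc1a2 and from 0.23 to 0.14 for Kmt2a. Cacna1e passed without the cage pair in edgeR. Grin2b, Kmt2a, Tnr and Grin2a passed with Gr1 and Gr2 alone (adjusted p = 0.011, 0.022, 0.037 and 0.042) and with no filter on low counts (0.0020, 0.011, 0.048 and 0.028), as did Nlgn2 in the latter (0.025). The 5 cerebellar genes lay between -0.06 and 0.00.

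The largest folds among genes of low level did not pass. Among genes with an unadjusted p under 0.05, a mean of at least 1 CPM and the same direction in every pair, 4930578M01Rik (0.681 ± 0.276 and 1.41 ± 0.22 CPM, -1.03) and Frmd7 (1.52 ± 0.40 and 2.81 ± 0.36 CPM, -0.88) followed the 3 called genes on the lower side. On the higher side stood Adam8 (1.66 ± 0.25 and 0.896 ± 0.261 CPM, 0.87), Abhd12b (0.80), Rpe65 (0.67), Alas2 (0.65) and Ddx4 (0.64). Adjusted p-values of these 7 ran from 0.087 to 0.44. With no filter on low counts those of Frmd7 and Alas2 were 0.022 and 0.040, and Frmd7 also passed with Gr1 and Gr2 alone (0.045).

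In males, 0 of 14737 genes passed between ranks in edgeR (194 had an unadjusted p under 0.05). Tph2 was at 12.4 ± 7.32 CPM (dominant) and 13.2 ± 7.61 CPM (submissive; SD, n = 7 each), Slc6a4 at 5.46 ± 3.57 and 6.97 ± 4.60 CPM, and Cartpt at 15.5 ± 4.88 and 16.2 ± 6.03 CPM. The spread among males of 1 rank was larger than the difference between the ranks for all 3. Within the 7 male cage pairs, the dominant male was the higher animal in 3 for Tph2, in 1 for Slc6a4 and in 3 for Cartpt, so the direction of Slc6a4 in 6 of 7 pairs was that of the females. The difference between the sexes in the effect of rank was tested directly, and 0 of 15233 genes passed (505 had an unadjusted p under 0.05). For Tph2 that difference was -1.67 on the log2 scale (adjusted p = 0.999). The sexes were sequenced and tabled apart, so sex and sequencing series cannot be told apart.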

How the data were processed

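Read counts per gene were used as deposited. Per the labels and the study's methods, the authors isolated RNA of the right hemisphere, prepared stranded total RNA libraries with ribosomal depletion, sequenced single-end reads of 85 nt, trimmed them with cutadapt 1.15 and a quality filter of 10, aligned with STAR 2.6.0a to mm10 and made the deposited read counts per gene with featureCounts 1.6.2. The strand setting was not given in the sources used here. The length used is that of the merged exons in the same table (24421 genes).

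The 4 dominant and 4 submissive females were compared with edgeR 4.0.16 (R 4.3.3; quasi-likelihood test, TMM factors, filterByExpr with a minimum count of 10 and a total of 15, Benjamini-Hochberg over all genes tested, threshold 0.05). CPM were scaled by the TMM factors, and ratios within pairs used a prior count of 2. DESeq2 1.42.0, its size factors, no filter, the cage pair as a block, a loess trend on length (span 0.3) as an offset, the numbered cages or Gr1 and Gr2 alone and each library left out were alternatives. Slopes on length used genes with a mean count of 100 or more. The code was tested on simulated data. Depth was 14967458 to 16488762 reads per library, and replicates differed by more than counting error.

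The replicate number stands for the cage in the library names, and the study killed cage mates together, so the numbers pair the samples. Deviations from the group means correlated little within cages (mean r 0.024, -0.026 to 0.048; other pairings -0.0080). P-values without the cage pair measure the spread between animals, and those with it measure the spread of differences within pairs.

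Members and lists were chosen with earlier results of these data known. Named genes were all genes called, the leading genes of the paired fit, the 5 largest folds in each direction (unadjusted p under 0.05, 1 CPM, all pairs alike), members of the lists that were called or had the smallest p, members of the serotonergic, m6A and stress lists, markers, and genes the study names. Promoters came from RefSeq (3 of 3 matched). A few genes that the rule names, 1 of the 14 called among them, are not reported here.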

Additional observations from a re-analysis of the deposited data

Results flagged for a closer look

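Values were flagged where 1 of 4 libraries of a group lay far from the other 3, measured by the gap to its neighbour over the range of the group; 8 of the 200 groups of values tested were flagged, and chance alone flags about 1 in 20. The summed CPM of the pituitary markers was 16.6 in the submissive female of Gr1 and 0.361 to 0.440 in the other submissive females. The summed CPM of the serotonergic markers was 114 in the submissive female of Gr2 and 142 to 145 in the others. Adam8 was at 2.03 CPM in the dominant female of Gr1 and at 1.503 to 1.58 in the other dominant females. Sgk1 was at 75.6 CPM in the dominant female of Gr1 against 68.8 to 69.3, and Maob was at 28.5 CPM there against 32.9 to 33.3. Hspa5 was at 355 CPM in the dominant female of Gr2 against 431 to 442. Atp2b4 was at 175 CPM in the submissive female of cage 2 against 165 to 167, and Prlr, a prolactin receptor gene of the choroid plexus, was at 35.1 CPM in the submissive female of Gr2 against 24.8 to 26.2.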

How the results depend on the processing

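The count of 14 genes called was 13 with DESeq2's size factors, 79 with DESeq2, 84 with no filter on low counts, 36 with the replicate block, 0 with the length trend removed (edgeR; 1129 at an unadjusted p under 0.05), 8 with the length trend removed and the replicate block, 5 with cages 1 and 2 alone, 120 with pairs Gr1 and Gr2 alone, and 0 to 77 when 1 library was left out. It was 7, 77, 1 and 3 without the dominant female of cage 1, cage 2, Gr1 and Gr2, and 0, 27, 0 and 3 without the submissive females in that order. The cause was not tested. The difference in slope on length was 0.026 to 0.036 with 1 library left out, where the exact p rose to 0.057 without any submissive female, and its sign-flip p within cage pairs (replicate block) was 0.13 for the same difference of 0.030. The difference between the sexes gave 0 genes in edgeR under each of 4 alternatives (446 to 1051 at an unadjusted p under 0.05).

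Of 1436 fold changes of named genes under 16 settings, 1431 kept their direction. The others were Maob (0.029 with cages 1 and 2 alone), Htr1a (0.019 with pairs Gr1 and Gr2 alone and -0.11 to 0.0054 with 1 library left out, the latter without the submissive female of cage 2) and Gata3 (-0.0069 without the dominant female of cage 2, and -0.038 to 0.42 over the libraries left out, the lowest without the submissive female of Gr2). Of 780 list medians, 745 moved by less than the SD between pairs. With pairs Gr1 and Gr2 alone the medians that moved further were those of hippocampal neurons (0.11), interneurons (0.040), oligodendrocyte precursors (-0.043), NMDA receptors (0.064), metabotropic receptors (0.10), sodium channels (0.099), the release machinery (0.075), adhesion (0.11), the axon initial segment (0.11), histone enzymes (0.12), the circadian clock (0.10) and ribosomal proteins (-0.074). With the numbered cages alone they were oligodendrocyte precursors (0.13), metabotropic receptors (0.0035), calcium pumps (0.036) and microRNA silencing (0.0020). With the length trend removed, without and with the replicate block, they were calcium pumps (0.025 and 0.024), histone enzymes (0.017 and 0.017), ribosomal proteins (-0.0061 and -0.0060) and the stress axis (-0.079 and -0.078). With 1 library left out, the lists of which any median moved further ran from -0.045 to 0.025 for oligodendrocyte precursors, 0.026 to 0.072 for NMDA receptors, 0.014 to 0.088 for sodium channels, -0.16 to -0.037 for the stress axis, 0.043 to 0.074 for the clock and -0.099 to -0.041 for cholesterol synthesis.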
